A study of Mus musculus with 2 samples.

Results

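The hairpins Mir199a-1, Mir199a-2, Mir199b and Mir214 were examined in microRNA sequencing of mouse adrenal gland. They were taken by name from GENCODE M21, as 4 of the 2202 microRNA genes counted in the deposited tables, because each lies on the strand opposite to a dynamin gene and because they are known from mesenchymal cells. The data held 1 group of 2 libraries from the adrenal glands of male B6CASTF1/J mice aged 25 days, an F1 cross of the strains C57BL/6J and CAST/EiJ. No treatment, second genotype or second tissue was present. The labels give each library its own animal number but a common donor entry, so an SD here measures the spread between the libraries, which may be technical.

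A microRNA is cut from a hairpin precursor by Drosha and Dicer, and either arm of the hairpin can give a mature strand of about the length of a short read. The mature strand recognises targets mainly through its seed, bases 2 to 8 from the 5′ end. In the mouse embryo, miR-199a and miR-214 mark mesenchyme, where Mir199a-2 and Mir214 are made from Dnm3os, a long noncoding RNA antisense to Dnm3. In adult organs both families are known from fibroblasts and other stromal cells and have been studied in fibrosis. Dynamins are membrane-fission GTPases; Dnm2 is broadly expressed, and Dnm1 and Dnm3 are best known from neurons. The adrenal gland, besides its steroid-producing cortex and its chromaffin cells, has a fibrous capsule and a stroma around its vessels. In whole tissue, fewer cells of a type and less RNA per cell cannot be told apart.

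The mature sequences are shown first because the miR-199 counts turn on which bases the hairpins share. They are RefSeq entries on GRCm38.p6, where all 4 hairpins matched the GENCODE M21 entries in position and in every base, and the seed is in capitals.
mmu-miR-199a-5p: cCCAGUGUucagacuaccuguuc
mmu-miR-199a-3p: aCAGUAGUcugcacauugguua
mmu-miR-199b-3p: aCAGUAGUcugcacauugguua
mmu-miR-214-5p: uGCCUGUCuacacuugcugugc
mmu-miR-214-3p: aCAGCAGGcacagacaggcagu
The 5 names stand for 4 different sequences with 4 different seeds. The 3p strand of miR-199 is the same in all 3 of its hairpins, and the miR-199a-5p strand is the same in Mir199a-1 and Mir199a-2. The first 8 bases of miR-199a-3p and miR-214-3p differ at 2 positions, U5C and U8G, counted from the 5′ end with the miR-199a-3p base first. Among 1738 mature entries of the RefSeq table, the seed of miR-214-3p recurred in miR-761, whose hairpin Mir761 had 0 counts in both libraries. No other mature strand in the table carried one of these 4 seeds. The table has no 5p entry for Mir199b, although the 5p side of that hairpin holds the miR-199a-5p seed unchanged.

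The hairpins themselves are given with the mature arms of the RefSeq table in capitals, to show where the copies part.
Mir199a-1: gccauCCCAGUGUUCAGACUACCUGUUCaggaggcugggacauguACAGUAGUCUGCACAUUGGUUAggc
Mir199a-2: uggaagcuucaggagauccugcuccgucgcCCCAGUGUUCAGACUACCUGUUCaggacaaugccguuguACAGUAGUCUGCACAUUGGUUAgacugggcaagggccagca
Mir199b: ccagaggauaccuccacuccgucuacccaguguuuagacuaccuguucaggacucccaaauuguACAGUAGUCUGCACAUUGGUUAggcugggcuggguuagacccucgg
Mir214: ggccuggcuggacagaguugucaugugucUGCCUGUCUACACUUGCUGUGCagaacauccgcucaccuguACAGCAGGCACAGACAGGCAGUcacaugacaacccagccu
Mir199a-1 and Mir199a-2 have 27 bases in a row in common around the 5p arm and 26 around the 3p arm. Mir199b shares 28 bases with Mir199a-1 and 27 with Mir199a-2 around the 3p arm. On its 5p side the best match to miR-199a-5p, bases 26 to 48 of the Mir199b hairpin, differs by C10U, counted from the 5′ end of miR-199a-5p. No stretch longer than 7 bases is common to Mir214 and a miR-199 hairpin.

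A read with more than 1 mapped place went to a summary line and to no gene, so the shared arms decide what a miR-199 count can contain. Of the possible reads of 20 to 24 bases that begin within 2 bases of an arm's annotated start, those of the Mir199a-1 3p arm were also present in another hairpin in 24 of 24 cases. The same held for 19 of 25 reads of the Mir199a-2 3p arm and 24 of 25 of the Mir199b 3p arm. For the 5p arm of Mir199a-1 and of Mir199a-2 it held for 15 of 25. On the 5p side of Mir199b 0 of 25 were shared, as were 0 of 25 on each arm of Mir214. The Mir199a-1 and Mir199a-2 values are therefore counts of the reads that reach past the common bases, and the Mir199b value holds its 5p side but nearly none of its 3p strand. For Mir214, no read of either arm was shared with another annotated hairpin. Copies elsewhere in the genome were not searched, although a read with a second place there would also be missing from a gene's count. Reads were placed exactly in this comparison; how many mismatches the alignment allowed is not given in the sources used here.

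**Figure D1:**
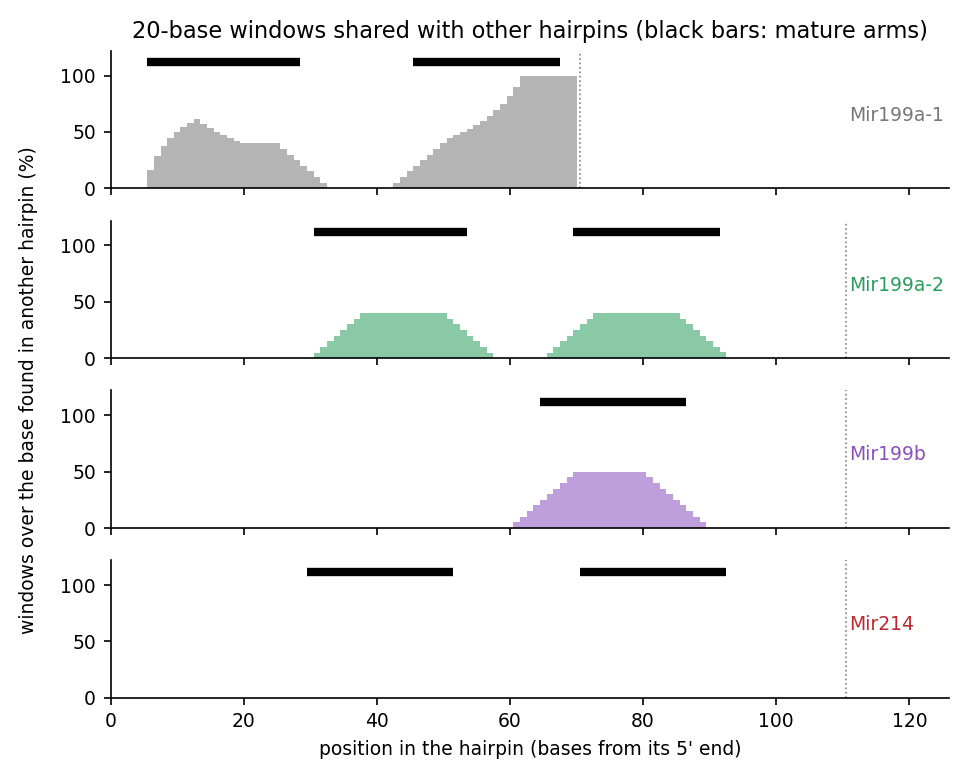
Share of the 20-base windows over each base (vertical axis, percent) that also lie in another annotated hairpin, along each member (horizontal axis, bases from the 5′ end); black bars are mature arms in the RefSeq table and the dotted line is the end of the hairpin. Sharing covers both arms of Mir199a-1 and Mir199a-2 and the 3p arm of Mir199b, while 0 of 91 windows of Mir214 are shared.

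By this measure 34 of 51 windows were unique to Mir199a-1, 75 of 91 to Mir199a-2, 81 of 91 to Mir199b and 91 of 91 to Mir214. Among all 2202 annotated hairpins, 1133 share at least 1 window of 20 bases with another, on either strand. The 3 miR-199 hairpins shared windows with each other and with no further hairpin.

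All 4 members lie in introns of dynamin genes on the opposite strand (mm10). Mir199a-1 (ENSMUSG00000065547.1) is on the minus strand (chr9:21496495-21496564), in intron 15 of Dnm2. Mir199b (ENSMUSG00000092807.1) is on the plus strand (chr2:32318460-32318569), in intron 14 of Dnm1. Mir199a-2 (ENSMUSG00000070126.1, chr1:162217814-162217923) and Mir214 (ENSMUSG00000065516.1, chr1:162223368-162223477) are on the plus strand, both in intron 14 of Dnm3. Intron numbers are those of a principal transcript. On their own strand these 2 hairpins lie in an exon of Dnm3os, 5444 bases apart. Of 6 annotated Dnm3os transcripts, 2 hold both hairpins whole within an exon. Exons of 5 transcripts overlap Mir199a-2 and exons of 3 overlap Mir214.

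**Figure D2:**
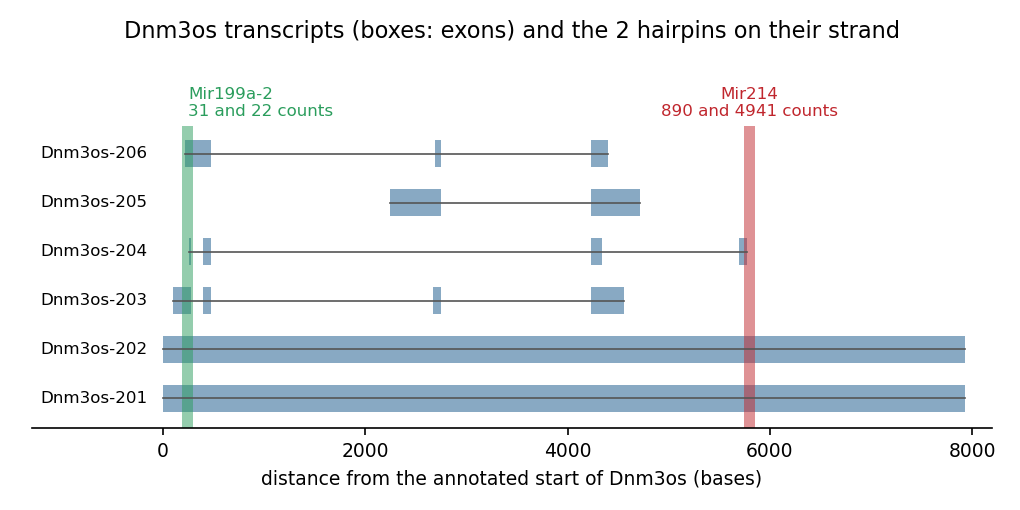
Map of Dnm3os, with distance from its annotated start in bases on the horizontal axis, one line per transcript, exons as boxes, and Mir199a-2 and Mir214 as coloured bands with their sense counts in replicates 1 and 2. The 2 single-exon transcripts span both hairpins, and the downstream Mir214 had the far higher unique counts, 890 and 4941 against 31 and 22. Reads that Mir199a-2 shares with its copies are left out, so the counts do not compare mature strands.

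Replicate 1 had 3588361 sense counts on microRNA genes and replicate 2 had 4541373, and levels are counts per 1000000 of these (CPM). A gene's count sums the reads of both arms, so the 5p and 3p strands were not told apart. A read covers a whole mature strand, so CPM was not divided by hairpin length. Reads mapped to several places numbered 2734873 and 2781545, and none of them is in a member's count. The 4 members held 1005 counts (0.0280% of the library) in replicate 1 and 5020 (0.111%) in replicate 2, or 0.0693% ± 0.0584 (SD, n = 2). Mir214 made up 88.6% of the members' counts in replicate 1 and 98.4% in replicate 2. The members had 0 antisense counts in both libraries, which covers uniquely placed reads only. Detected here means 10 or more counts in each library; 352 genes were, and 3 of the 4 members were among them.

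By unique counts, Mir214 was the abundant member and the one that differed most between the libraries. It had 890 counts in replicate 1 (248 CPM, exact 95% interval 232 to 265) and 4941 in replicate 2 (1088 CPM, 1058 to 1119). The replicate 2 level thus lay far above that of replicate 1, beyond the counting error of either. The mean of 668 CPM ± 594 (SD, n = 2) put it at rank 95 of 2202 genes and above 73.0% of the detected ones. Intervals and limits here cover counting error alone: the reads carry no molecular identifiers and are not independent molecules.

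Mir199b came next. It had 84 counts in replicate 1 (23.4 CPM, 18.7 to 29.0) and 57 in replicate 2 (12.6 CPM, 9.51 to 16.3). Here replicate 1 was the higher library, and the intervals did not overlap. The mean was 17.98 CPM ± 7.68 (SD, n = 2), rank 268 of 2202, with 24.4% of detected genes below it.

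Mir199a-2 was near the lower end of the detected genes. It had 31 counts in replicate 1 (8.64 CPM, 5.87 to 12.3) and 22 in replicate 2 (4.84 CPM, 3.04 to 7.33). Replicate 1 was again the higher library, with intervals that overlapped. Its mean was 6.74 CPM ± 2.68 (SD, n = 2), and 12.8% of detected genes lay below it.

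Mir199a-1 had 0 counts in both libraries. For reads unique to a hairpin, a count of 0 allows up to 3 counts, or 0.836 CPM in replicate 1 and 0.661 CPM in replicate 2. That is a one-sided limit; the exact two-sided 95% intervals used for the other members end at 1.03 and 0.812 CPM. Neither limit covers the arms this hairpin shares with Mir199a-2 and Mir199b, and the level of the mature miR-199a strands from this locus was not detectable in these counts. Mir1946b, the nearest annotated hairpin, lies 116879 bases away and also had 0 counts.

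**Figure D3:**
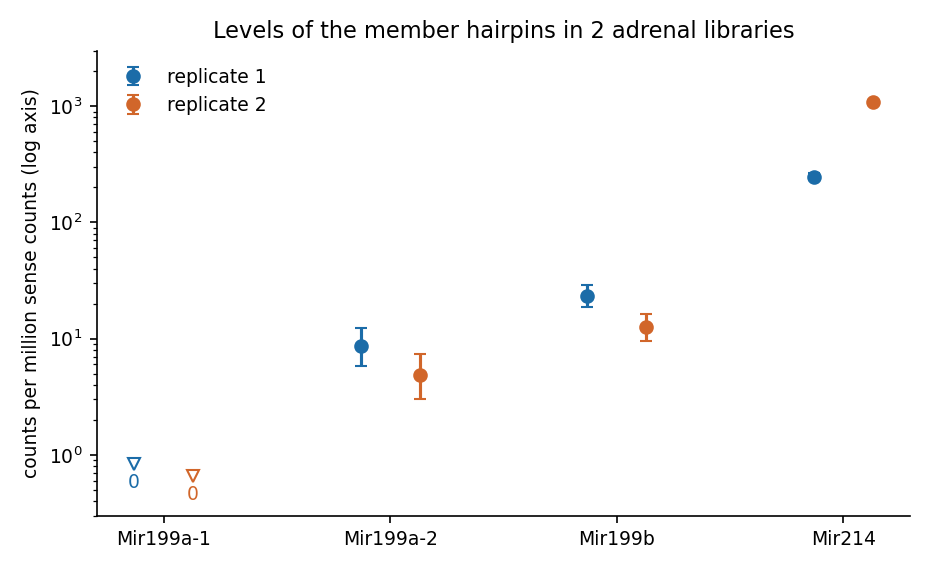
Sense CPM (vertical log axis) of each member in replicate 1 and replicate 2; bars are exact 95% intervals for counting error, and open triangles mark the level that a count of 0 allows. Mir214 is at 248 and 1088 CPM, higher in replicate 2, while Mir199b and Mir199a-2 are lower in replicate 2 and Mir199a-1 has 0 counts.

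The order of the counted levels was Mir214, Mir199b, Mir199a-2 and Mir199a-1 in both libraries. Within replicate 1, Mir214 had 10.6 times the counts of Mir199b (exact 95% interval 8.46 to 13.4) and Mir199b had 2.71 times those of Mir199a-2 (1.78 to 4.23). Within replicate 2 these ratios were 86.7 (66.8 to 115) and 2.59 (1.56 to 4.45). The 3 counted members thus differed from their neighbours in the order beyond counting error in each library. Because unique counts leave out the shared arms, the ratios to miR-199 hairpins compare counted reads, not mature strands.

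For each detected gene, the split of its reads between the libraries was set against the split of the totals (exact binomial test, two-sided, Benjamini-Hochberg adjusted over 352 genes). This compares 2 libraries and no conditions. Calls at an adjusted p under 0.05 were common: 236 of 352 genes (67.0%), with 107 (30.4%) higher in replicate 2 and 129 (36.6%) higher in replicate 1. Of the 3 members tested, 2 were called, 1 in each direction, a share near that of all genes. The direction of calls depends on Mir122, the main hepatocyte microRNA, at 892 CPM in replicate 1 against 197553 CPM in replicate 2. With Mir122 out of the totals the median detected gene moved by 0.30 on the log2 scale, and 176 of 251 calls (70.1%) were higher in replicate 2.

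Mir214 was 4.39-fold higher in replicate 2 (exact 95% interval 4.08 to 4.72), a log2 ratio of 2.13 with a pseudocount of 1 CPM, and its adjusted p was too small for the software to represent. Over all detected genes the median log2 ratio was -0.04, with the central 90% between -1.18 and 1.37. Mir214 therefore lay outside that range, at rank 9 of 352. Of the 8 genes with larger ratios, 3 were liver hairpins from the list below and 5 were not on that list. Among those 5 was Mir106b, of a cluster related to Mir17, at 2.15.

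Mir199b was 1.87-fold higher in replicate 1 (1.32 to 2.66), a log2 ratio of -0.85 with an adjusted p of 0.000495 by the binomial test. With Mir122 out of the totals its log2 ratio was -0.55 with an adjusted p of 0.0266. Mir199a-2 was 1.78-fold higher in replicate 1 (1.00 to 3.23), a log2 ratio of -0.72 with an adjusted p of 0.0564 by the same test, and was not called. Without Mir122 in the totals the value was -0.46 with an adjusted p of 0.270. Both miR-199 hairpins lay inside the central 90% of detected genes, and Mir214 did not.

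**Figure D4:**
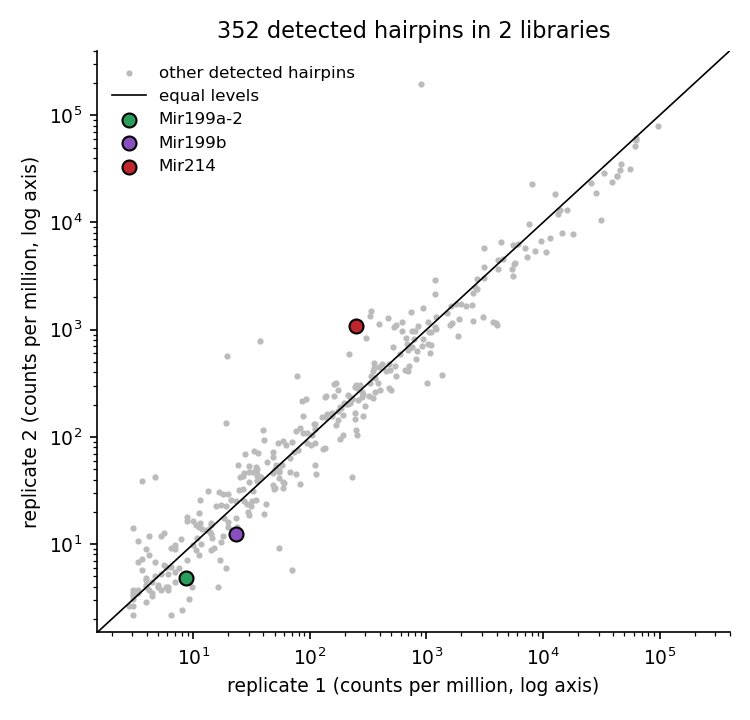
Levels of the 352 detected hairpins in replicate 1 (horizontal log axis) and replicate 2 (vertical log axis), in CPM, with the line of equal levels. Mir214 lies above the line, 4.39-fold higher in replicate 2, and Mir199b and Mir199a-2 lie slightly below it; the far outlying grey point is Mir122.

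Ratios between members do not depend on the library total, and they give the same contrast. The ratio of Mir214 to Mir199a-2 counts was 28.7 in replicate 1 (20.1 to 42.5) and 225 in replicate 2 (148 to 359), a 7.82-fold change (exact conditional 95% interval 4.36 to 14.2). The ratio of Mir214 to Mir199b changed 8.18-fold (5.73 to 11.7). The ratio of Mir199b to Mir199a-2 changed 0.956-fold (0.481 to 1.92), an interval that includes no change and also a change of nearly 2-fold. Mir214 thus departed from both miR-199 hairpins by more than counting error. Mir214 and Mir199a-2 share the exon of 2 Dnm3os transcripts. Whether the share of Mir199a-2 reads lost to its copies differed between the libraries was not tested.

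This pair was set beside the other neighbouring hairpins. There were 94 pairs of adjacent hairpins on the same strand, under 10000 bases apart, with both members detected. Their count ratio changed by a median of 1.51-fold between the libraries in either direction. The Mir214 to Mir199a-2 ratio, with a log2 change of 2.97, had rank 1 of 94. The next were Mir380 to Mir299a, in the imprinted Dlk1-Dio3 region, at -2.67, and Mir106b to Mir93 at 2.32. The smooth muscle pair Mir143 to Mir145a was at 1.20, rank 18. The size of the ratio itself was less extreme: the Dnm3os pair had rank 9 of 94, where the median pair differed 5.62-fold. Reads that Mir199a-2 shares with its copies are missing from its count, so both ranks compare counted reads, not mature strands. Mir199a-2 rests on 31 and 22 counts, which makes its ratio less precise than those of abundant pairs, and the difference between the first and second rank was not tested.

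**Figure D5:**
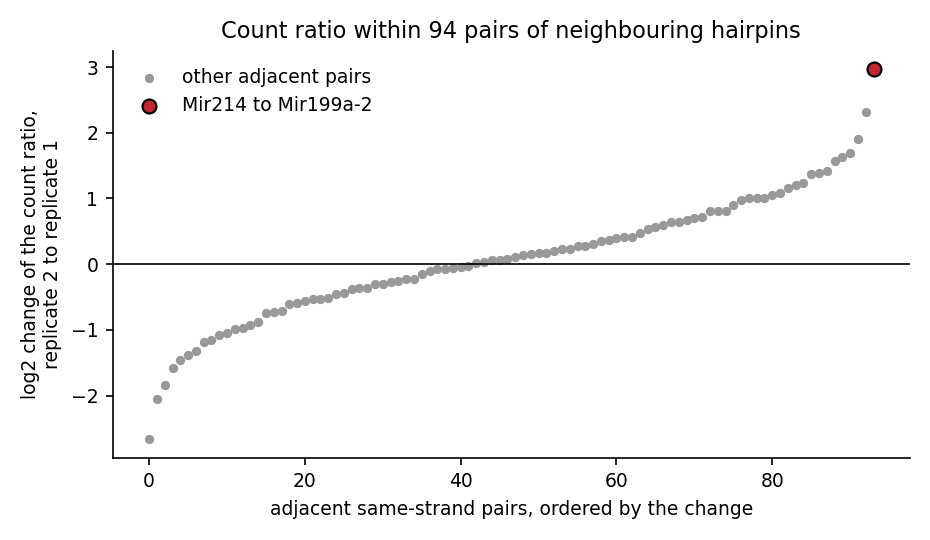
Log2 change of the count ratio within each of 94 adjacent same-strand hairpin pairs from replicate 1 to replicate 2 (vertical axis), ordered by that change (horizontal axis). Mir214 to Mir199a-2, at 2.97, is the highest point.

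The detected hairpins most like each member over the 2 libraries were those with the smallest distance in log2(CPM + 1). For Mir214 they were Mir34a (305 and 839 CPM in replicates 1 and 2), Mir101b (327 and 1334 CPM) and Mir106b (333 and 1486 CPM), all 3 called higher in replicate 2. For Mir199b they were Mir384 (86 and 66 counts), Mir196a-1 (72 and 65) and Mir450-1 (65 and 54). For Mir199a-2 they were Mir7688 (29 and 23 counts), Mir302b (30 and 20) and Mir302a (35 and 18). With 2 libraries, likeness means only a similar level and ratio.

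Other hairpins of stroma and vessel wall did not share a single direction. Of the 17 listed, 15 were detected, 7 were called higher in replicate 1, 3 higher in replicate 2 and 5 were not called. Among all detected genes 36.6% were called higher in replicate 1 and 30.4% higher in replicate 2, so mixed directions were not particular to this list. Their median log2 ratio was -0.05, against -0.04 for all detected genes. Those called higher in replicate 1 included the smooth muscle hairpins Mir145a (3953 and 1162 CPM) and Mir143 (45599 and 30787 CPM), and Mir21a (18167 and 7728 CPM), known from activated fibroblasts. The 3 called higher in replicate 2 were Mir497 (389 and 1126 CPM), Mir152 (163 and 240 CPM) and Mir29a (3150 and 3841 CPM), of the miR-29 family that targets collagen mRNAs. Totals that leave out Mir122 gave 7 calls toward replicate 2 and 6 toward replicate 1, where all detected genes gave 176 and 75. Mir143, Mir145a and Mir21a stayed among the 6, and the median was 0.23 against 0.27 for all detected genes. The summed level of the list was 162416 CPM in replicate 1 and 90803 CPM in replicate 2. Without Mir122 in the totals the sums were 162561 and 113157 CPM. The largest parts were Mir10a (55753 and 31700 CPM), Mir143, Mir10b (31262.5 and 10544 CPM) and Mir21a, all called higher in replicate 1. The sum therefore follows a few abundant hairpins, and its relation to Mir214 was not tested.

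Lists of markers of other organs and cells differed between the libraries to unequal degrees. Their calls stand beside 30.4% of all detected genes called higher in replicate 2 and 36.6% called higher in replicate 1. All 6 detected members of the 9-gene liver list were called higher in replicate 2, with a median log2 ratio of 3.19 and a summed level of 2040 CPM in replicate 1 and 201553 CPM in replicate 2. Of the 3 hairpins most like Mir214, Mir101b is on this list and Mir34a and Mir106b are not. That likeness was taken from the same 2 levels, so it is no separate evidence. Mir214 without the 9 liver-list hairpins in the totals had a log2 ratio of 2.45. That change of totals also moved the median detected gene by 0.31, so it does not test a liver part in the Mir214 difference. All 6 detected leukocyte hairpins were called higher in replicate 1, with summed levels of 5013 and 2833 CPM and Mir142b at 0 in both. The endothelial list summed to 68037 and 68381 CPM; of its 4 detected hairpins 3 were higher in replicate 2 by the test and 1 in replicate 1. The striated muscle list summed to 1006 CPM in replicate 1 and 3.52 CPM in replicate 2, with Mir206 at 987 CPM in replicate 1 and 0.661 CPM in replicate 2, with 0 of 10 members detected in both and Mir133a-2 and Mir133b at 0. Red blood cell hairpins, with 2 of 3 called higher in replicate 1, summed to 1542 and 1297 CPM. The adrenal medulla list, led by Mir375, summed to 40552 and 34315 CPM, with 4 of 6 members called as higher in replicate 1 and the other 2 in the opposite direction. Without Mir122 in the totals the leukocyte calls were 5 of 6, the red cell calls 0 of 3, the endothelial calls 4 of 4 for replicate 2, and the medulla calls 3 in each direction. The part of these other cells or tissues in the Mir214 difference was not tested.

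Lying opposite a coding gene was not rare among hairpins. Of the 2202, 307 overlapped a protein-coding gene on the opposite strand and none on their own. Of these, 34 (11.1%) were detected, against 318 (16.8%) of the other 1895, and the detected ones had a median of 23.4 CPM against 137 CPM. Within the 34, Mir214 had rank 8 by mean CPM, Mir199b rank 21 and Mir199a-2 rank 26. Mir214 thus stood in the upper part of this class and the miR-199 hairpins around or below its middle, on unique counts. Next to Mir199b, 116 bases away on the same strand, the annotated hairpin Gm23363 had 2 and 3 counts.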

How the data were processed

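MicroRNA sequencing of adrenal gland was available as 2 libraries of 1 group. The deposited tables hold raw counts per microRNA gene, made by the authors on mm10 with GENCODE M21, per the text files beside them; aligner and trimming settings: not given in the sources used here. The values show 3 count columns (either strand, sense, antisense), of which sense was used. The 4 summary lines name no gene and were left out of totals; in the sense column unmapped reads were 21.3% and 22.8% of input, reads mapped to several places 31.6% and 27.0%, and reads outside microRNA genes 5.73% and 5.99%.

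CPM, exact (Clopper-Pearson) intervals at 95%, binomial tests and conditional intervals of count ratios were computed with Python 3.11.15, numpy 2.4.6, pandas 2.3.3 and scipy 1.17.1. The binomial test was checked on counts simulated with counting error alone. That check does not cover spread between libraries beyond counting error. edgeR 4.0.16 and DESeq2 1.42.0 in R 4.3.3 gave size factors for alternatives only, since 1 library on each side leaves no residual degrees of freedom. Shared windows were read from GENCODE M21 transcripts. Hairpins named besides the members were those most like each member, next to it or sharing a seed, the lists of cell type hairpins, and the leading adjacent pairs, of which the last were chosen after their values were seen. The members, lists and tests were chosen with earlier results of these data known.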

Additional observations from a re-analysis of the deposited data

How the results depend on the processing

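Levels, log2 ratios, ratios between members and the number of calls were recomputed with totals without Mir122 or without the 9 liver-list hairpins (the latter, and the calls of the cell type lists without Mir122, chosen after seeing the data), with edgeR TMM and DESeq2 size factors, with all input reads as the total, in the either-strand column, with pseudocounts of 0.1 and 10 CPM, with other count minimums and without each library. No member changed direction or its side of the threshold under the settings run. The log2 ratio of Mir214 ran from 2.09 (pseudocount of 10 CPM) to 2.45, that of Mir199b from -0.55 to -0.89, and that of Mir199a-2 from -0.33 (pseudocount of 10 CPM) to -0.82 (pseudocount of 0.1 CPM). The largest adjusted p of Mir199b was 0.0321, without the liver-list hairpins. The adjusted p of Mir199a-2 ran from 0.0561 to 0.270. At a minimum of 50 counts Mir199a-2 was not tested. Per 1000000 input reads the mean levels of Mir199a-2, Mir199b and Mir214 were 2.86, 7.62 and 292, lower because the total is larger. Shorter and longer windows kept the order of the shares unique to each hairpin. The number of genes called ran from 208 to 251, but the number tested varied. Calls were 208 of 267 at a minimum of 50 counts and 245 of 749 at 1 or more counts over both libraries. Without Mir122 in the totals they were 251 of 352. The share called thus depended on the setting. No paired analysis was possible because there is only 1 group. Mir199a-2 rests on 31 and 22 counts, and the miR-199 arms common to several hairpins cannot be quantified from unique counts at any depth.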
